A study of Mus musculus with 28 samples.

Results

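The mitosis and spindle genes are 43 genes that drive entry into mitosis, build and move the spindle, hold the spindle checkpoint or divide the cell. They were chosen by name, and every array probe whose RefSeq accession maps to one of them was taken. This gave 61 probes, of 55681 distinct probes and 20660 named genes on the array. A single probe stood for 29 of the genes, 10 genes had 2 probes and 4 genes had 3. Probes of the same gene share their target, so they are not independent readings.

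The livers came from male B6C3F1 mice, a hybrid strain used in toxicology, labelled as 42 days old. Phenobarbital is a barbiturate drug that switches on the constitutive androstane receptor of hepatocytes. The drinking water of 3 mice held 0.05% of it over some 4 weeks, and 3 control mice drank water alone. All 6 livers had been kept as formalin-fixed, paraffin-embedded blocks for 16 years, and the RNA of whole liver was amplified as cDNA. The study was about preparing RNA from such blocks for Agilent arrays. Each mouse was measured in 4 sets of arrays, 1 slide a set. In the one-colour format a mouse had an array of its own, with cDNA loaded at 1X or 1.5X, and the two-colour format, with dyes swapped, used the same pair of inputs. The sets are repeat measurements of the same 6 mice, so they share their controls, and n is 3 mice per group throughout. The labels do not say whether the mice shared cages or litters.

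A dividing cell condenses its chromosomes under cyclin B and Cdk1, attaches them to spindle microtubules at the kinetochores, and waits in the spindle checkpoint until all are attached. The anaphase-promoting complex (APC/C), a ubiquitin ligase, then marks securin and cyclin B for destruction, the sister chromatids part, and the cleavage furrow divides the cell. Most of these genes are transcribed only late in the cell cycle, and few hepatocytes divide in a resting adult liver. Phenobarbital is known as a liver growth stimulus in mice, with an early wave of hepatocyte division. In bulk liver RNA, more dividing cells and more RNA per dividing cell cannot be told apart.

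In the one-colour sets, 44.2% to 51.9% of all probes were well above background in a mouse at 1X, and 28.1% to 38.6% at 1.5X. Input, slide and scan session changed together within each format, so they cannot be told apart. Of the two-colour 1X arrays 6 of 8 could be assigned, because the labels of 2 arrays contradict each other. As a check of the exposure, Cyp2b10, the classical target of the receptor, read at least 80.2% of the array's 75th percentile signal in every phenobarbital mouse, against at most 1.59% in the controls over both one-colour inputs. It was at least 23.8-fold higher (limma log2 fold change 6.21, adjusted p = 0.000137), and no control array had it well above background. All 14 probes of the hepatocyte marker list were well above background on every array of both one-colour sets, as the tissue label says.

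Of the mitosis probes, a part was higher in the phenobarbital livers in both one-colour sets and in the two-colour 1X set, and none passed the test as lower in any set. Over the mean of both one-colour inputs, 18 of the 61 probes, from 14 genes, were bright enough to test, and 6 rose: Cdc20, Ube2c, Mad2l1, Mad1l1, Birc5 and Nek2, by 1.10 to 2.76 on the log2 scale (limma, Benjamini-Hochberg over all 16299 probes tested, threshold 0.05). Of all probes tested in that comparison, 0.626% rose. Of these 6, Cdc20 and Mad2l1 passed the filter through the phenobarbital group alone, which selects for higher readings there, while the other 4 were well above background in both groups. The calls rest on few mice: without phenobarbital mouse 3, or without control mouse 1, limma called 0 of the members, although 15 and 14 of them had an unadjusted p under 0.05. With all 6 mice, 15 of the 18 members and 2197 of all 16299 probes tested had such a p. The count over all probes was not made with 1 mouse left out. Without the other mice, the count of members called was 4 (phenobarbital mouse 1), 1 (phenobarbital mouse 2), 2 (control mouse 2) and 2 (control mouse 3, of which 1 was Cenpe and not among the 6). With no filter on dim probes, which adjusts over 55630 probes, limma called 0 of the 6 (adjusted p of 0.0545 for Ube2c to 0.144 for Nek2) and 2 dimmer members, Kif2c and Anln. With the replicate number as a block, 2 of the 6 passed, Mad1l1 and Ube2c.

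Without a filter on dim probes, most of the 61 leaned the same way. The phenobarbital mean was higher for 55 of them over both one-colour inputs, against 61.4% of all probes on the array. All 3 phenobarbital mice read above all 3 controls for 34 of the 61, against 7.09% of all probes, and 0 had the groups apart in the other direction, against 4.68%. By the test, 0.104% of all probes tested fell. The median log2 difference of the 61 was 0.81, against 0.09 for all probes. With normexp background correction and quantile normalization it was 0.29, with 49 of the 61 higher. Many of these probes were close to background, where log differences are imprecise. Of the 61, 21 were well above background on no one-colour array. Among these, Bub1b and Kif11 read nearly alike on each 1.5X array, as percent of its 75th percentile signal. Bub1b read 0.607, 1.11 and 1.24 in phenobarbital mice and 0.771, 0.917 and 0.977 in controls. Kif11 read 0.610, 1.11 and 1.30 in phenobarbital mice and 0.809, 0.905 and 1.01 in controls. The counts of higher means include such readings at background.

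In the one-colour sets taken singly, fewer members passed the test. At one-colour 1X, 1 of the 24 members tested rose, against 0.13% of all probes tested, and 0 fell, against 0.00813%. At one-colour 1.5X, 2 of 19 rose, against 0.221%, and 0 fell, against 0.0239%. With any 1 of the 6 mice left out, limma called 0 members at 1X, where 14 to 22 had an unadjusted p under 0.05, and 0 or 1 at 1.5X, where 14 to 16 had. With all 6 mice, 17 of the 24 members and 2152 of all 24613 probes tested had such a p at 1X. At 1.5X it was 14 of the 19 members and 2459 of all 16761 probes. The count over all probes was not made with 1 mouse left out. Over all 61 probes without a filter, the phenobarbital mean was higher for 54 at 1X, against 62% of all probes, and for 56 at 1.5X, against 63.1%. The groups were apart with phenobarbital higher for 23 probes at 1X, against 5.21%, and for 27 at 1.5X, against 6.31%. They were apart the other way for 0 at 1X, against 4.04%, and for 1 at 1.5X, against 4.56%.

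**Figure D1:**
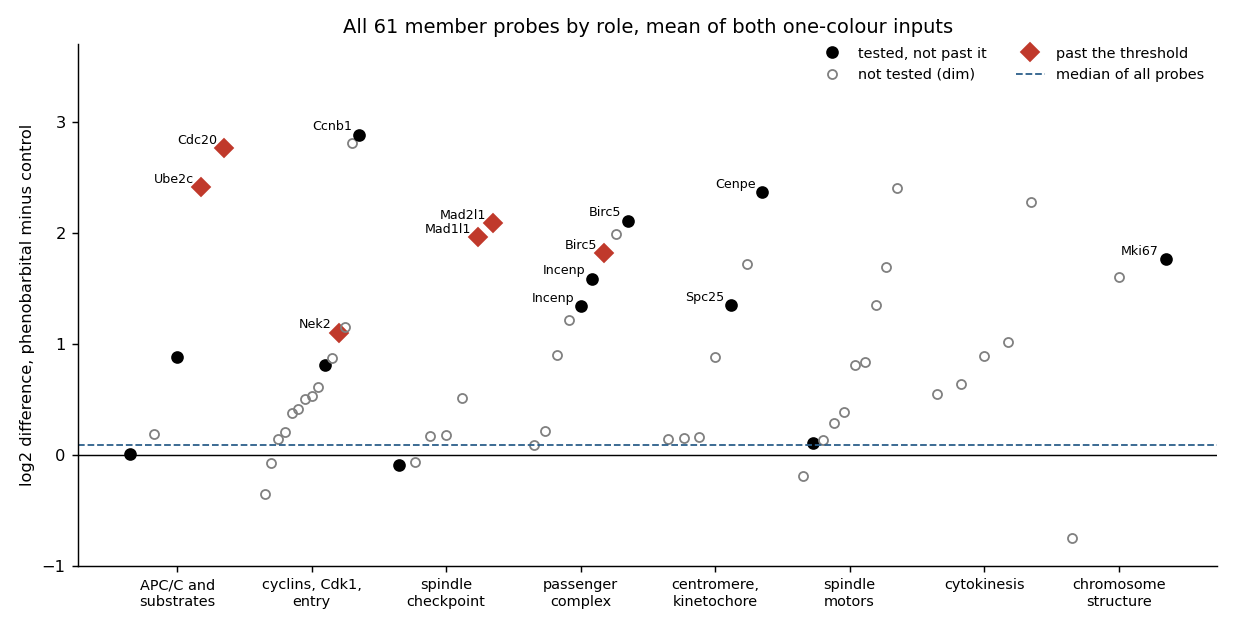
Log2 difference between phenobarbital and control mice (y axis, mean of both one-colour inputs) for each of the 61 probes, grouped by role and sorted within a role (x axis). Red diamonds passed the test, black points were tested and did not pass, open circles were too dim to test, and the dashed line is the median of all probes (0.09); 55 of the 61 points lie above 0.

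Among the genes of the APC/C and its substrates, Cdc20 and Ube2c rose and securin did not pass the test. Levels below are percent of the array's 75th percentile signal, as the mean of the 2 one-colour arrays of a mouse unless a set is named. Cdc20, which activates the APC/C at the start of anaphase, read 82.7, 32.3 and 47.5 in phenobarbital mice 1 to 3, against 6.39, 9.19 and 6.93 in control mice 1 to 3. Every phenobarbital mouse was well above the highest control, and the log2 fold change was 2.76 (SE 0.33, limma adjusted p = 0.0189). Its probe was well above background on both arrays of all 3 phenobarbital mice, but of only 1 control mouse.

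Ube2c, the ubiquitin-conjugating enzyme that hands ubiquitin to the APC/C, read 46.6, 40.2 and 64.4 in phenobarbital mice, against 6.56, 9.89 and 12.3 in controls. The groups lay far apart, with a log2 fold change of 2.41 (SE 0.28, limma adjusted p = 0.0163), and this probe was above background in every mouse. Ube2c was also the single member that rose in the 1X set alone, where it read 51.6, 74.3 and 69.6 in phenobarbital mice and 8.23, 16.9 and 12.98 in controls (log2 fold change 2.40, limma adjusted p = 0.0431). That probe was A_55_P1996941. The other, A_51_P451151, read 17.8, 14.1 and 14.0 in phenobarbital mice and 5.68, 9.63 and 10.3 in controls, a difference of 0.88 that did not pass (limma adjusted p = 0.194). Securin (Pttg1), the inhibitor of separase that the APC/C destroys, read 25.6, 8.27 and 11.01 in phenobarbital mice and 11.3, 16.1 and 12.5 in controls, so that the groups overlapped (log2 difference 0.01).

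The promoters of 36 of the 43 genes were matched by symbol in a RefSeq table of 300-base windows on GRCm38.p6. Most windows in the table (79% of the 25090 compared) ran from 250 bases before the annotated gene start to 50 bases into the gene. They are shown because late cell cycle promoters are known to carry CCAAT boxes, bound by NF-Y, and the cell cycle homology element TTTGAA, bound by the MuvB complex. Both were searched as exact letters on both strands. CCAAT was in 29 of the 39 member windows (74.4%), against 37.4% of all 32851 windows in the table. TTTGAA was in 27 of 39 (69.2%), against 17.9% of all windows, and both were in 24 (61.5%), against 6.95%. Ect2 has a pair of overlapping, nearly identical windows of its own, as does Prc1, and Mad1l1 has a pair of starts. Aurkb, Ccna2, Cdc25c, Foxm1, Incenp, Kif20a and Tpx2 had no window matched. The windows of the 3 members with the largest log2 difference among those tested are printed 5′ to 3′ with both motifs in capitals, followed by Birc5, which rose and holds neither set of letters.
Ccnb1 (GRCm38.p6, chr13:100786437-100786736, minus strand): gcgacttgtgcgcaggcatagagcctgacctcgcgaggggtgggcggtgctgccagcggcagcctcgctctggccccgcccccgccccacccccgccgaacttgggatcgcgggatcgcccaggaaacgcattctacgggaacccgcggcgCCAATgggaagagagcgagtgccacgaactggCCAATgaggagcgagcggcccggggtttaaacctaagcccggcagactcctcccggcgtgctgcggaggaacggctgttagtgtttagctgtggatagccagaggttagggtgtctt
Cdc20 (GRCm38.p6, chr4:118437294-118437593, minus strand): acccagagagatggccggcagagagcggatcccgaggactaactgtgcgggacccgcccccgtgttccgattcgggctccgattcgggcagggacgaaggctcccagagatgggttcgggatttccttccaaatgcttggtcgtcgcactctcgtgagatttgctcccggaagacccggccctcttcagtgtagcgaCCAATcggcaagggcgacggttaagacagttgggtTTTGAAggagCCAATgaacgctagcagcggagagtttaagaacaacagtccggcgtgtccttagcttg
Ube2c (GRCm38.p6, chr2:164769679-164769978, plus strand): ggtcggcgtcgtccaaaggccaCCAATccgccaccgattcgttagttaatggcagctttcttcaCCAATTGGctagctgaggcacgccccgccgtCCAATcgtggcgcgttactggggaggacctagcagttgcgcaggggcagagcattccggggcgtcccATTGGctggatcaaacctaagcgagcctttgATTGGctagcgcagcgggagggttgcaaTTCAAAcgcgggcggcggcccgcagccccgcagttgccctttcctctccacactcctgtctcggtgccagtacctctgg
Birc5 (GRCm38.p6, chr11:117848987-117849286, plus strand): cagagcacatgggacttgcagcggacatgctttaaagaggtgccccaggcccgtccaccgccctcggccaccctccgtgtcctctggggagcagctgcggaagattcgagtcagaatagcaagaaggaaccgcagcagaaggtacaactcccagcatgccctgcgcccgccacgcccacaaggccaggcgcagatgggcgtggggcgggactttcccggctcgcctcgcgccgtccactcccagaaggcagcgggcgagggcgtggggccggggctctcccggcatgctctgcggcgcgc

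Genes that rose were found with and without the motifs. Of the 6 genes called over both one-colour inputs, the Cdc20 window holds 2 CCAAT matches and 1 TTTGAA match, that of Ube2c 6 and 1, and that of Nek2 2 and 0. The windows of Birc5, Mad1l1 and Mad2l1 hold no match. A pair of the Ube2c matches, on opposite strands, share letters. Top2a, whose probe was too dim to test, holds 6 and 2. Ccnb1 holds 2 and 0.

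Among the cyclins and the kinases of mitotic entry, Nek2 rose and cyclin B1 differed by a large amount without passing. Nek2, a kinase that parts the centrosomes, read 32.7, 36.4 and 35.4 in phenobarbital mice and 14.6, 17.6 and 16.6 in controls. Its change was small but the mice of each group lay close together (log2 fold change 1.10, SE 0.15, limma adjusted p = 0.0247). Ccnb1, the cyclin that activates Cdk1 for mitosis, read 55.5, 30.6 and 47.6 in phenobarbital mice, against 1.96, 14.5 and 7.04 in controls. The groups did not overlap, but the controls were widely spread, and the log2 fold change of 2.88 (SE 0.65) had a limma adjusted p of 0.116. Control mouse 1 was not well above background at 1X, and without it the log2 fold change was 2.10. The other Ccnb1 probes, with differences of 1.15 and 0.87, were too dim to test over both inputs. The probe of the second value, A_55_P2128668, was tested at 1X and did not pass (log2 difference 0.76, limma adjusted p = 0.430).

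The rest of this group was dim. Foxm1, the transcription factor that drives many late cell cycle genes, was tested through 1 probe, which read 25.3, 14.1 and 17.4 in phenobarbital mice and 8.36, 13.5 and 10.2 in controls (log2 difference 0.81, limma adjusted p = 0.251). All 3 probes of Cdk1, the kinase itself, stayed between 0.821 and 2.46 in every mouse and were not well above background on any one-colour array. The probes of Ccna2, Cdc25c and Plk1 and the other Foxm1 probe were likewise below that call on every one-colour array. Cdca3, a trigger of mitotic entry, read 15.4, 6.55 and 17.5 in phenobarbital mice, against 0.857, 3.04 and 1.96 in controls. It was well above background in phenobarbital arrays alone and at least 2.83-fold higher there, but too few of those arrays showed it for a test over both inputs (at 1.5X alone, log2 difference 3.01, limma adjusted p = 0.101). Genes named with values in this and the following paragraphs beyond the 13 probes of the naming rule were picked after their values were seen.

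Of the spindle checkpoint, which holds back the APC/C until the chromosomes are attached, Mad1l1 and 1 probe of Mad2l1 rose. Mad1l1, the scaffold that recruits Mad2 to kinetochores, read 87.1, 128 and 97.1 in phenobarbital mice and 28.9, 31.0 and 20.6 in controls. It was above background in every mouse, and the groups were well apart (log2 fold change 1.96, SE 0.22, limma adjusted p = 0.0163). In the 1.5X set alone it also rose, with readings of 91.0, 157 and 95.6 in phenobarbital mice and 26.5, 29.99 and 20.3 in controls (log2 fold change 2.14, limma adjusted p = 0.0383).

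Mad2l1, which codes for Mad2, the protein that sequesters Cdc20, gave different answers by probe. The probe that rose, A_55_P2133255, read 20.9, 17.5 and 22.0 in phenobarbital mice, against 4.13, 7.92 and 3.21 in controls (log2 fold change 2.09, SE 0.32, limma adjusted p = 0.0392). Another, A_55_P2179296, above background in every mouse, read 45.0, 51.1 and 40.8 in phenobarbital mice and 47.6, 49.8 and 48.2 in controls, a difference of -0.09. The third probe was near background, with a difference of -0.07. The remaining checkpoint genes, the kinases Bub1, Bub1b and Ttk, were not well above background on any one-colour array.

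**Figure D2:**
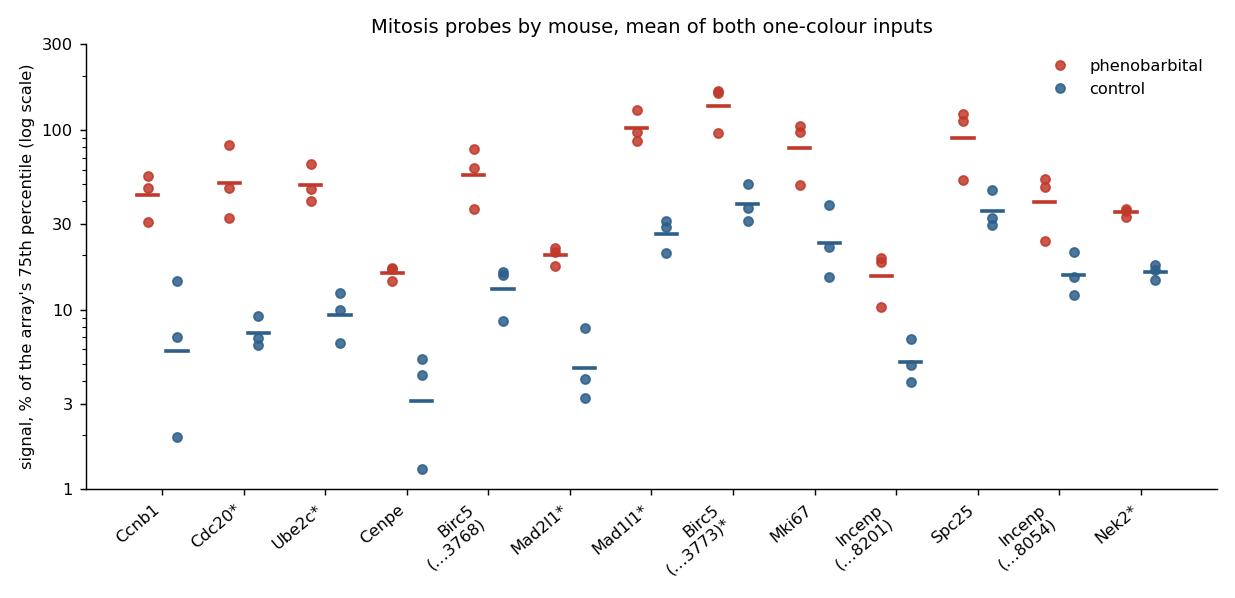
Signal of the 13 named probes in each mouse (points; phenobarbital red, left of control blue), as percent of the array's 75th percentile on a log axis, mean of both one-colour inputs; bars are the geometric means of 3 mice, asterisks mark the 6 probes past the threshold, and names with digits are probes of the same gene. The 13 probes were named for passing the test in some set or for large differences in these values, which favours groups apart. The groups do not overlap for any of the 13, against 7.09% of all probes with phenobarbital apart and higher. The controls of Ccnb1 and Cenpe are widely spread.

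In the chromosomal passenger complex, which corrects faulty attachments and guides cytokinesis, survivin (Birc5) rose over both one-colour inputs, and Incenp passed the test at one-colour 1.5X and at two-colour 1X. Of the 3 Birc5 probes, A_55_P1983773 read 160, 95.9 and 164 in phenobarbital mice and 31.2, 50.2 and 36.8 in controls. All mice had it above background, and the log2 fold change was 1.82 (SE 0.27, limma adjusted p = 0.0366). A_55_P1983768, with 61.2, 36.1 and 78.3 in phenobarbital mice and 8.59, 15.5 and 16.2 in controls, gave 2.11 (SE 0.35) at a limma adjusted p of 0.0502, just short of the threshold, and the third, A_55_P1983769, too dim to test over both inputs, differed by 1.98. At 1X it was above background in every mouse and did not pass (log2 difference 1.74, limma adjusted p = 0.132). The 3 Birc5 probes thus differed from each other by no more than 0.29 on the log2 scale.

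Incenp, the scaffold of the complex, was read by 2 probes. A_55_P2028054 had 53.0, 24.0 and 48.2 in phenobarbital mice and 12.02, 20.9 and 15.2 in controls over both inputs, a log2 fold change of 1.34 (limma adjusted p = 0.147) with phenobarbital mouse 2 close to control mouse 2. At 1.5X the same probe rose, with 42.1, 30.5 and 36.8 in phenobarbital mice and 10.4, 14.1 and 11.9 in controls (log2 fold change 1.59, SE 0.20, limma adjusted p = 0.0390). The difference between the inputs did not pass for this probe (0.50, limma adjusted p = 0.925). The other probe, A_55_P1978201, gave 1.59 over both inputs (limma adjusted p = 0.0691), from 18.3, 10.3 and 19.3 in phenobarbital mice and 4.89, 6.89 and 3.98 in controls. Of the Aurora kinases, Aurka was not well above background on any control array and at least 1.83-fold higher in phenobarbital mice, while Aurkb stayed near background in all mice, between 1.09 and 1.43.

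No probe of the centromere and kinetochore genes passed the one-colour tests, although Cenpe and Spc25 were large in size. Cenpe, a kinesin that carries chromosomes to the spindle equator, read 16.8, 14.4 and 17.0 in phenobarbital mice and 5.34, 4.34 and 1.30 in controls (log2 fold change 2.37, SE 0.48, limma adjusted p = 0.0863). Spc25, a subunit of the Ndc80 complex that binds microtubules, read 112, 52.8 and 123 in phenobarbital mice and 32.2, 46.4 and 29.4 in controls (log2 fold change 1.35, SE 0.34, limma adjusted p = 0.149). In both cases the groups were apart, but phenobarbital mouse 2 lay near the highest control for Spc25. Cenpe passed the filter through the phenobarbital group alone: no control mouse had it above background on both arrays and 1 had it on any, so most of its control values are readings at background and the size of its difference is uncertain. Ndc80, a partner of Spc25, was tested at 1X, where it read 16.9, 6.46 and 10.7 in phenobarbital mice and 11.7, 6.52 and 6.97 in controls. The groups overlapped (log2 difference 0.38, limma adjusted p = 0.852). Nuf2, Cenpa and Cenpf were too dim to test in any one-colour set.

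Mki67, the proliferation marker Ki-67 that coats mitotic chromosomes, read 105, 49.2 and 97.1 in phenobarbital mice and 15.2, 22.2 and 38.2 in controls. The groups did not overlap, and the log2 fold change of 1.76 (SE 0.40) had a limma adjusted p of 0.116. A second Mki67 probe lay near background, and its difference had the opposite sign (-0.75). Top2a, the topoisomerase that untangles sister chromatids, was too dim to test.

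Few probes of the spindle motors and the cytokinesis genes were bright enough to test. Not well above background on any one-colour array were 4 of the 10 motor probes and 1 of the 5 cytokinesis probes. Of the motors and microtubule binders, 1 probe could be tested over both inputs: Hmmr, a microtubule-binding protein also known as a hyaluronan receptor, which read 66.8, 53.7 and 66.1 in phenobarbital mice and 58.4, 51.2 and 64.1 in controls (log2 difference 0.10, limma adjusted p = 0.830). Its probe was above background in every mouse, and the groups overlapped. Kif2c, a kinesin that shortens microtubules, differed by 2.40 through 1 of its probes, but control arrays never had it above background, and the measured bound was at least 1.15-fold. None of the 5 cytokinesis probes could be tested over both inputs. At 1X 1 was tested, A_55_P2127702 of Racgap1, a regulator of the cleavage furrow, which read 41.7, 22.01 and 27.8 in phenobarbital mice and 33.96, 27.8 and 20.97 in controls. The groups overlapped (log2 difference 0.12, limma adjusted p = 0.954). Over both inputs the 5 differed by 0.55 to 2.28, the last for Anln, an actin-binding protein of the cleavage furrow, at least 1.20-fold higher in phenobarbital mice.

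**Figure D3:**
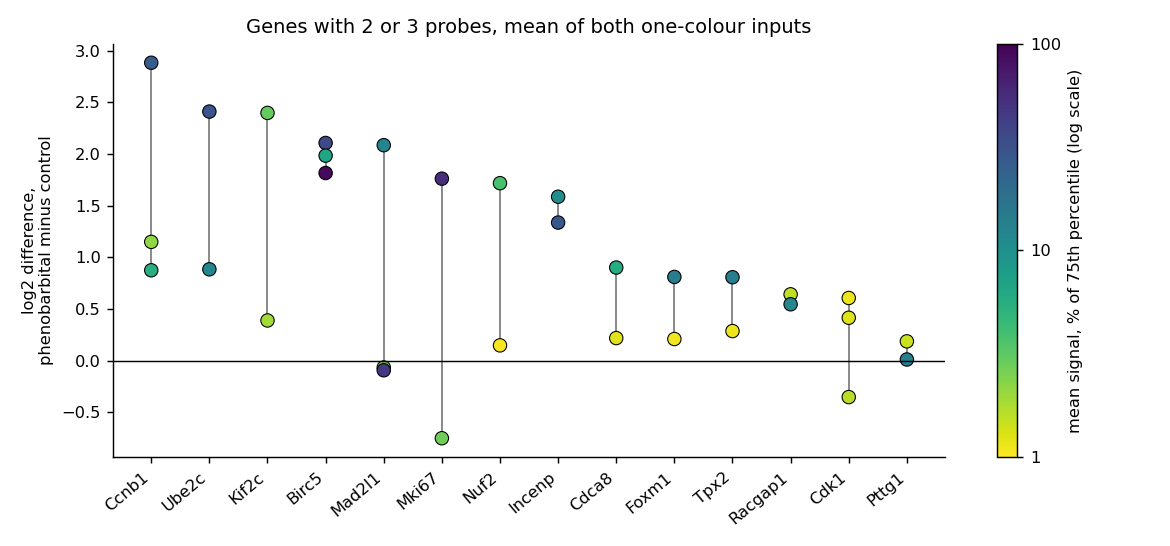
Log2 difference between phenobarbital and control mice (y axis, mean of both one-colour inputs) for each probe of the 14 genes with 2 or 3 probes (x axis); a line joins the probes of a gene and the colour gives the mean signal on a log scale. The 3 Birc5 probes and the 2 Incenp probes lie together, while those of Mad2l1 and Mki67 fall on both sides of 0.

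Probes of the same gene thus did not always read alike. The range between probes was at most 0.29 for Birc5, Incenp, Pttg1 and Racgap1, and at least 2.01 for Ccnb1, Kif2c, Mad2l1 and Mki67. For Pttg1 and Racgap1 only 1 of the 2 probes was well above background on any one-colour array, so their small range includes a reading at background. For Kif2c and Mki67 the probe nearer background had the smaller difference, while for Mad2l1 a probe above background in all mice differed by only -0.09. The files give no probe sequence or position used here, so which transcripts each probe reads was not analysed.

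More mitosis probes were detected after phenobarbital at the 1.5X input than in controls, and the difference at 1X was small. On all 3 arrays of a group, 23 member probes were well above background in phenobarbital mice and 22 in controls at 1X, and 19 in phenobarbital mice and 13 in controls at 1.5X. On any array of the group the counts were 37 in phenobarbital mice and 29 in controls at 1X, and 37 in phenobarbital mice and 18 in controls at 1.5X. In the two-colour 1X set 9 probes were above background on all arrays in phenobarbital mice and 6 in controls, and 26 in phenobarbital mice and 17 in controls on any array. At two-colour 1.5X no probe was above background on all arrays of either group, and on any array 31 were in phenobarbital mice and 25 in controls. For all probes in the one-colour sets the share on every array ran the other way, with 40.7% in phenobarbital mice and 41.8% in controls at 1X, and 26.1% in phenobarbital mice and 28.9% in controls at 1.5X. For the two-colour arrays, the share of all probes above background on every array was 12.96% in phenobarbital mice and 17.9% in controls at 1X, and 3.01% in phenobarbital mice and 2.30% in controls at 1.5X. On any array, for all probes, it was 33.2% in phenobarbital mice and 30.5% in controls at two-colour 1X, and 45.6% in phenobarbital mice and 48.8% in controls at two-colour 1.5X. In the one-colour sets the share on any array was 53.8% in phenobarbital mice and 56.2% in controls at 1X. At one-colour 1.5X it was 39.7% in phenobarbital mice and 38.4% in controls, the same direction as the members.

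By mouse, 33, 24 and 31 member probes were above background in phenobarbital mice at 1X, against 26, 23 and 25 in controls. At 1.5X the numbers were 37, 21 and 20 in phenobarbital mice and 15, 18 and 14 in controls. Phenobarbital mouse 1 stood out at 1.5X, where it also had the highest share of all probes above background (38.6%). Mice 2 and 3 of the phenobarbital group, with 30.8% and 28.1% of all probes, had lower shares than each control (32.1% to 34.9%) and still more member probes. Over both inputs, 11 genes had a probe above background in phenobarbital mice and in no control array, namely Anln, Aurka, Ccnb1 (a second probe), Ccnb2, Cdca3, Ect2, Kif23, Kif2c, Kif4, Nuf2 and Prc1, and no gene showed the reverse. These are 11 of the 61 probes (18.03%), against 3.22% of all probes, and for the reverse 0 of the 61, against 5.11% of all probes. Anln and Cdca3 were above background in all 3 phenobarbital mice on some array. But Ccnb2, Ect2 and Kif4 were so on 1 array each, and the Ccnb1 probe in 1 mouse. The Nuf2 and Kif2c probes were so in only 1 phenobarbital mouse at each input. At 1.5X, phenobarbital mouse 1 alone had as many member probes above background (37) as its group had on any array (37). At least 1 probe was above background somewhere for 31 of the 43 genes, and for 12 genes none was.

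**Figure D4:**
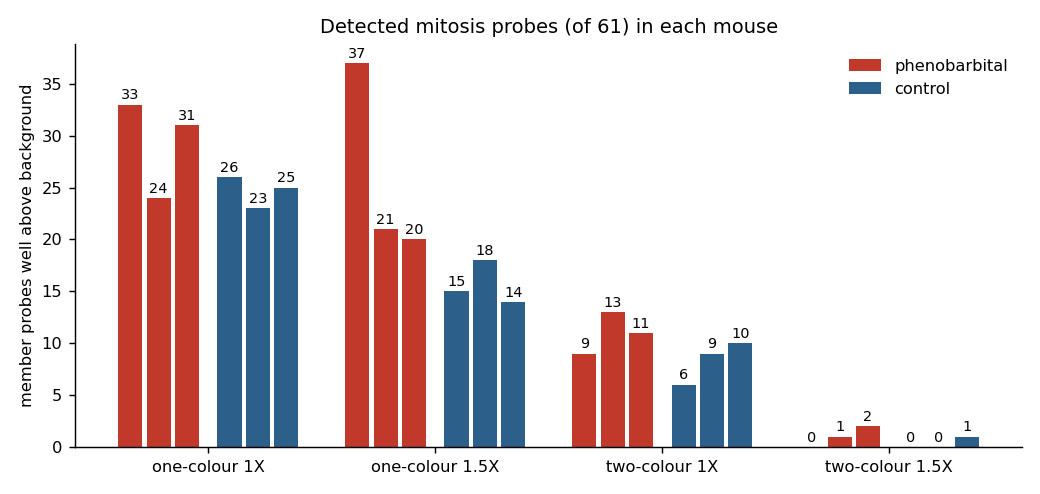
Number of the 61 member probes well above background (y axis, from 0) in each mouse of the 4 sets (x axis); phenobarbital mice 1 to 3 in red stand left of control mice 1 to 3 in blue, and a two-colour mouse counts a probe when all its channels show it. At 1.5X one-colour, all 3 phenobarbital mice (20 to 37) exceed all controls (14 to 18), and almost nothing is detected in the two-colour 1.5X set.

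The phenobarbital mice also differed from each other. Over both one-colour inputs, phenobarbital mouse 2 was the lowest of its group for 37 of the 61 probes, and mouse 3 for 5. Mouse 2 was the lowest for Cdc20, Ccnb1, Birc5, Mki67, Spc25 and Incenp, but the highest for Mad1l1 and Nek2. Among controls, mouse 1 was the lowest for 32 probes. This order did not hold at two-colour 1X, with the mice taken from the descriptions. There phenobarbital mouse 2 was the lowest of its group for 10 probes and the highest for 23, and mouse 1 was the lowest for 27. Control mouse 1 was the lowest for 19. All these counts include probes near background.

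In the two-colour 1X set few members could be tested, and most of those rose. Values there are normalized signals with an offset of 50, which compresses fold changes. Of 10 probes tested, from 9 genes, 8 rose: both tested Birc5 probes, Ccnb1, Cdc20, Incenp, Mad1l1, Mki67 and Spc25, by 0.51 to 1.15 on the log2 scale. Of all 10043 probes tested 3.3% rose and 3.13% fell, so calls of either direction were more common in this set. Ccnb1, Cdc20, Mki67 and Birc5 A_55_P1983768 had passed the filter through the phenobarbital group alone.

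Birc5 had signals of 375, 374 and 479 in phenobarbital mice and 153, 204 and 196 in controls through A_55_P1983773 (log2 fold change 1.15, SE 0.14, limma adjusted p = 0.00267). Mad1l1 had 293, 339 and 244 in phenobarbital mice and 153, 153 and 134 in controls (0.98, SE 0.12, limma adjusted p = 0.00322). Cyclin B1, which did not pass in the one-colour sets, had signals of 151, 154 and 146 in phenobarbital mice and 83.8, 96.7 and 84.2 in controls, with little spread in either group (0.77, SE 0.08, limma adjusted p = 0.00182). The other 5 showed the same picture of groups apart. Cdc20 had 177, 179 and 163 in phenobarbital mice and 93.2, 103 and 90.1 in controls (0.86, limma adjusted p = 0.000990). Mki67 had 212, 229 and 251 in phenobarbital mice and 99.2, 135 and 143 in controls (0.89, limma adjusted p = 0.00835). Spc25 had 241.1, 260.1 and 359 in phenobarbital mice and 146, 163 and 169 in controls (0.83, limma adjusted p = 0.0130).

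The remaining probes tested at two-colour 1X were Hmmr (0.15) and Mad2l1 A_55_P2179296 (0.05), which did not pass. With 1 mouse left out, 6 to 9 members were past the threshold in this set. Incenp no longer passed without phenobarbital mouse 2 or without any 1 control mouse (adjusted p up to 0.122, limma), and Spc25 without control mouse 1, while the other 6 calls passed each time. The mouse numbers mattered: with the mice taken from the source names, which differ from the descriptions on several arrays, 2 of the 10 probes passed, Birc5 A_55_P1983773 and Mad1l1. The phenobarbital mean was higher for 53 of the 61 probes, against 50% of all probes. Of the 61, 21 had all phenobarbital mice above all controls, against 7.62% of all probes, and 2 the reverse, against 7.63%.

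In the two-colour 1.5X set no member was bright enough to test, because the Cy5 channel was dim. The Cy5 channels there showed 0 to 3 member probes in phenobarbital mice and 0 to 1 in controls, and the Cy3 channels 21 to 29 in phenobarbital mice and 21 to 24 in controls. Cdc20 had signals of 136, 105 and 111 in phenobarbital mice and 105, 122 and 107 in controls, which overlap, and Birc5 A_55_P1983773 had 173, 149 and 206 in phenobarbital mice and 151, 170 and 160 in controls. Over all 61 probes the groups were apart with phenobarbital higher for 5, against 4.23% of all probes, and lower for 1, against 4.33%, and the phenobarbital mean was higher for 43, against 49.4%. Of all 1823 probes tested 0% passed in either direction (limma; 34 at an unadjusted p under 0.05). From the Cy3 channel alone, 22 members could be tested, and 1 rose, against 0.0997% of all 20062 probes tested, and 0 fell, against 0.00997%. It was Ube2c, by 0.69 (limma adjusted p = 0.0275). In that channel the groups were apart with phenobarbital higher for 15 of the 61 probes, against 5.28% of all probes, and lower for 1, against 5.25%. Among them Birc5 A_55_P1983773 differed by 0.56, Ccnb1 by 0.71 and Mad1l1 by 0.44, and none of these passed (limma adjusted p of 0.209, 0.0632 and 0.149).

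**Figure D5:**
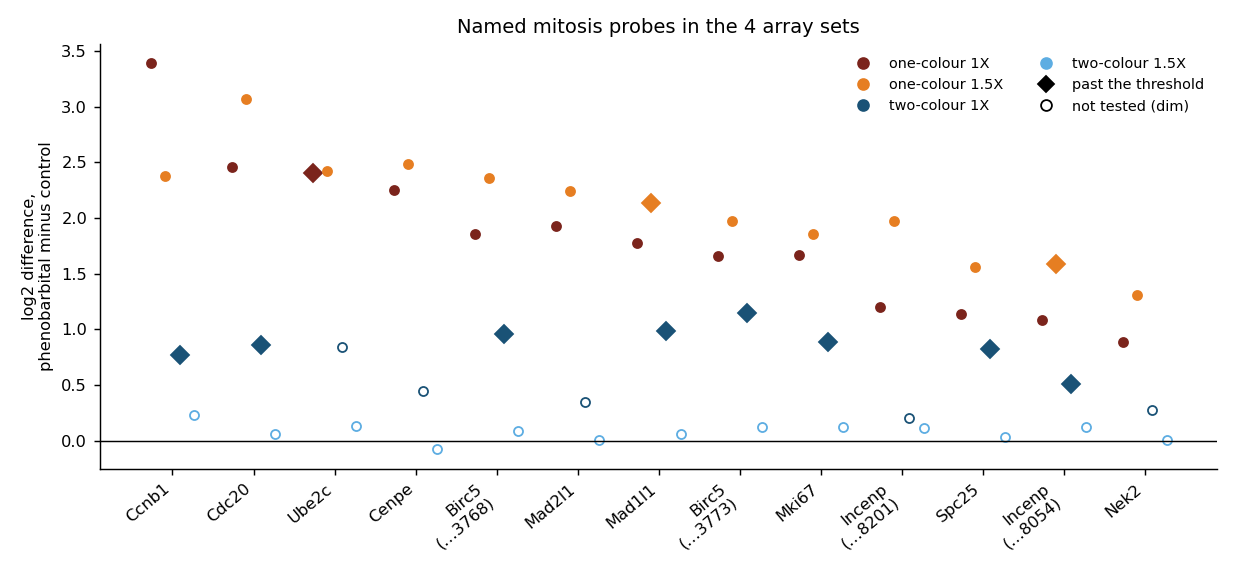
Log2 difference between phenobarbital and control mice (y axis) for the 13 named probes (x axis) in each of the 4 sets, which measure the same 6 mice; diamonds passed the test, filled circles were tested and open circles were too dim to test. One-colour differences lie between 0.89 and 3.39, those at two-colour 1X between 0.20 and 1.15, and those at two-colour 1.5X near 0.

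The input did not detectably alter the effect on these genes in the one-colour sets. The difference in log2 fold change between 1.5X and 1X passed limma's test for 0 of the 18 members and for 0 of 16299 probes (0%). At an unadjusted p under 0.05 there was 1 member, Incenp A_55_P1978201, whose change was larger at 1.5X by 0.77 (SE 0.29, limma adjusted p = 0.834), and there were 904 of all probes. At 1X alone this Incenp probe overlapped between the groups, with 15.6, 7.15 and 16.9 in phenobarbital mice and 4.33, 7.92 and 4.50 in controls.

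Single probes of the other cell cycle lists also rose. Over both one-colour inputs, 1 of 9 tested probes rose among the other centromere and kinetochore genes. It was Zwilch, a subunit of the complex that brings dynein to kinetochores (log2 fold change 2.25, limma adjusted p = 0.0324). Of 9 tested among the other entry kinases, phosphatases and transcription factors 1 rose, Cks1b, a small subunit of cyclin-dependent kinases (1.03, limma adjusted p = 0.0255). Of 12 tested among the DNA replication genes 1 rose, Mcm6, a subunit of the replicative helicase (1.33, limma adjusted p = 0.0428). None of 16 passed among the APC/C subunits and cofactors, none of 8 among the cohesin, condensin and separase genes, none of 4 among the other spindle, kinesin and cytokinesis genes, and none of 13 among the G1 cyclins, kinases and inhibitors. In this comparison no probe fell in any of these lists, and of all probes tested 0.626% rose and 0.104% fell. At two-colour 1X, 2 of 6 tested G1 probes, 2 of 5 for replication, 1 of 3 other kinetochore and 1 of 2 other entry probes rose. There 1 replication probe and 1 of 11 for the APC/C fell, and none passed in the cohesin and other spindle lists. Of all probes tested in that set, 3.3% rose and 3.13% fell.

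Taken over all their probes without a filter, the median log2 differences were 0.70 for 41 DNA replication probes, 0.57 for 36 other spindle, kinesin and cytokinesis probes and 0.40 for 45 other kinetochore probes, against 0.81 for the 61 members and 0.09 for all probes. They were 0.19 for the G1 list, 0.14 for the APC/C list, 0.12 for the cohesin list and 0.086 for the list of other entry kinases, phosphatases and transcription factors. Over the tested probes alone, the medians were 0.69 for 12 replication, 0.0045 for 4 other spindle and 0.46 for 9 other kinetochore probes. For the 18 members tested, 6 of them through the phenobarbital group alone, the median was 1.67, and for all probes tested it was -0.03. Of the 36 other spindle probes, 20 were well above background on no one-colour array, so the 0.57 includes many readings at background. Esco2, a cohesin acetyltransferase, had the largest difference of its list (2.23, limma adjusted p = 0.0636), and in the G1 list E2f2, a transcription factor of S phase, differed by 1.28 (limma adjusted p = 0.0664). In the DNA replication list Mcm10, which helps to load the replicative polymerase, had the largest difference, of the opposite sign (-1.38, limma adjusted p = 0.0941).

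Markers of other cell types that could divide were also read over both one-colour inputs, and none of those tested passed. Few could be tested: 9 Kupffer cell and macrophage, 3 T, B and NK cell, 2 neutrophil and 5 erythroid probes. There were also 3 cholangiocyte, 8 endothelial, 6 stellate cell and fibroblast and 11 pancreas probes. Of all probes tested 0.626% rose and 0.104% fell, so the lack of calls among so few probes says little about these cells. The summed level of the 61 members was 837 to 1239 in phenobarbital mice and 400 to 486 in controls. Of Kupffer cell and macrophage markers, 9 of 14 probes had a higher phenobarbital mean, and the sums were 662 to 860 in phenobarbital mice and 600 to 685 in controls. For T, B and NK cell markers these values were 12 of 17 probes, 138 to 202 in phenobarbital mice and 110 to 152 in controls, with Cd3d, Cd3g, Cd8a, Klrb1c and Ms4a1 not above background on any array. For neutrophil markers they were 9 of 10 probes, 541 to 588 in phenobarbital mice and 508 to 571 in controls, with Mpo and S100a8 never above background and S100a9 at a log2 difference of 2.08 (limma adjusted p = 0.229). For the stellate cell and fibroblast list they were 8 of 10, 2176 to 2605 in phenobarbital mice and 1787 to 2263 in controls, and for the endothelial list 1 of 10, 336 to 400 in phenobarbital mice and 394 to 438 in controls. The erythroid list had 7 of 8, with 1984 to 3434 in phenobarbital mice and 1533 to 4338 in controls, and the cholangiocyte list 5 of 8, with 161 to 246 in phenobarbital mice and 118 to 223 in controls. Pancreas genes, carried over in the blocks, had 0 of 12 higher, with sums of 7837 to 51206 in phenobarbital mice and 11555 to 53936 in controls. The part of these cells in the values of the mitosis genes was not tested.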

How the data were processed

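Members, gene lists and comparisons were chosen with earlier results of these data known. The authors extracted each array with Feature Extraction 11.0.1.1, per the submitters' processing notes. The deposited scanner tables give, for every spot, a processed intensity with background subtracted and the raw median intensities, per the file headers, and the deposited flags (unit: other) hold the call of well above background. The deposited series matrix of the authors holds the one-colour processed signal again as an intensity, and log10 ratios for the two-colour arrays, which were not used. No count depth exists for arrays, and their number limits the precision.

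Accessions were matched to symbols of GRCm38.p6. Spots of a probe were averaged after removal of outlier flags. One-colour values were the log2 signal minus the array's 75th percentile over probes well above background on every array of the set. Two-colour values used normexp (offset 50), loess (span 0.3) and Aquantile, and both dyes of a mouse were averaged. Each two-colour array held a phenobarbital mouse and a control mouse, and the fit took no account of this sharing of arrays. A probe entered the test when every array of 1 group or the other showed it well above background. Tests used limma 3.58.1 (R 4.3.3), with adjustment over all such probes and a threshold of 0.05. All member probes past the threshold in any comparison, and the 10 with the largest difference over both one-colour inputs, are given by mouse. A bound (at least N-fold) takes a dim value as the lowest signal that the array's flags still call well above background. Each fit was tested on simulated data. The deviations of mice with the same replicate number correlated at 0.05, -0.10 and 0.25 over both inputs, against -0.24 to 0.22 for other pairs. At two-colour 1X these values were 0.29, -0.04 and 0.37, against -0.38 to 0.28. Such a check cannot exclude pairing by replicate number, and the main tests used no pairing. Figures used matplotlib 3.10.9.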

Additional observations from a re-analysis of the deposited data

How the results depend on the processing

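The direction of each of the 13 named probes was compared wherever both the main fit and the other fit tested it, so never at two-colour 1.5X. Among these comparisons no direction changed under any other processing. Under leaving out 1 mouse it changed only for the difference between inputs, where no call had been made. There the difference with 1 mouse left out ran from -0.37 to 0.52 for Ube2c (values below 0: -0.22, -0.26 and -0.37), from -0.068 to 0.50 for Cenpe (also -0.028), from -0.017 to 0.40 for Mki67 (also -0.015), from -0.26 to 0.72 for Mad2l1 and from -1.76 to 0.18 for Ccnb1. The number of members past the threshold did depend on the processing. At one-colour 1X it was 1, against 0 with no filter on dim probes, 0 with the percentile over all probes, 0 with the slide row as a block, 2 with 1 probe per gene and 3 with normexp and quantile normalization, and 0 to 0 with 1 mouse left out. At one-colour 1.5X it was 2, against 0 with no filter, 1 with the slide row, 5 with the percentile over all probes and 12 with normexp and quantile normalization, and 0 to 1 with 1 mouse left out. Over both inputs it was 6, against 2 with no filter, of which 0 were among the 6, and 9 with normexp and quantile normalization, and 0 to 4 with 1 mouse left out. At two-colour 1X it was 8, against 2 with the mice of the source names, and 6 to 9 with 1 mouse left out; at two-colour 1.5X it was 0, against 1 in the Cy3 channel alone. With the replicate number as a block, the counts were 0, 0 and 2 at one-colour 1X, 1.5X and both inputs, the 2 being Mad1l1 and Ube2c. The cause of these shifts was not tested, except that no filter enlarges the number of probes adjusted for. Over both inputs the counts of all probes past the threshold were 119, against 28 with no filter, 58 with the replicate block, 222 with normexp and quantile normalization, and 11 to 153 with 1 mouse left out. At 1X and 1.5X these counts over all probes ranged from 3 to 56 and from 3 to 185, and at two-colour 1X from 121 to 1002. The median difference of the 61 members ran from 0.22 to 0.85 at one-colour 1X, from 0.35 to 1.07 at 1.5X and from 0.29 to 0.83 over both inputs, lowest each time with normexp and quantile normalization. Under processed two-colour signals at 1X the phenobarbital mean was higher for 33 of the 61 members, against 53, where the median difference of all probes was -0.22.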
